A study of Mus musculus with 6 samples.

Results

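Inhibitory receptors of myeloid cells were examined in mouse acute myeloid leukemia with and without the nuclear receptor gene Ppara. The set was given by name and held 10 genes: the sialic acid receptors Siglece, Siglecf and Cd33, the leukocyte immunoglobulin-like receptors Lilrb4a and Pirb, the immunoglobulin family receptors Btla, Sirpa, Lair1 and Cd300a, and the Ly49 family receptor Klra2. All 10 were measured, each by 1 probe set, among 30142 named genes. Siglecf was found under its older symbol Siglec5 through its gene ID. The receptors were selected on their signal differences between the genotypes on these same arrays, so these differences are a description and support nothing further.

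Total RNA was measured on 6 arrays, 3 of Ppara +/+ and 3 of Ppara -/- leukemia. Both groups came from marrow cells infected with a retrovirus carrying the fusion oncogene MLL-AF9 and green fluorescent protein (GFP), were passaged into secondary recipient mice, and were sorted as GFP-positive cells from recipient bone marrow. The Ppara -/- line lacks the gene in every cell of the donor mouse and had been backcrossed for 10 generations, while the age, the sex and the genotype of the recipients were not given in the sources used here. Nothing says whether replicates were separate primary leukemias or separate animals, so each p-value reflects only the scatter among these arrays, which may be technical.

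Most of these receptors carry short tyrosine motifs in their cytoplasmic tails (immunoreceptor tyrosine-based inhibitory motifs). When a ligand is bound, the tyrosines are phosphorylated by Src family kinases and recruit the phosphatases SHP-1 and SHP-2, encoded by Ptpn6 and Ptpn11, which dampen activating signals in the same cell. Siglecs bind sialic acid on glycans, SIRPA binds CD47, PIRB binds MHC class I molecules, BTLA binds the herpesvirus entry mediator encoded by Tnfrsf14, LAIR1 binds collagens and CD300A binds aminophospholipids. In myeloid leukemia, PIRB and the human relative of Lilrb4a are known as receptors that sustain leukemia cells or restrain T cells.

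The values are log2 array signals, so a difference of 1 is a doubling of signal, and levels of different probe sets were not compared. The negative-control probe sets, which match no mouse RNA by design, had a median of 4.63 to 5.16 and a 95th percentile of 7.91 to 8.23 over the 6 arrays. Ppara +/+ replicate 1 (median 5.16) and Ppara -/- replicate 2 (median 4.99) had the highest negative-control medians. Ppara itself was at 5.08 ± 0.18 in Ppara +/+ and 5.19 ± 0.12 in Ppara -/- samples (mean ± SD, n = 3; p = 0.5 in a two-sided exact permutation test, which cannot go below 0.1 at this size). Its signal lay near the negative-control medians in both genotypes, and no source used here says which exons its probes cover, so it does not check the labels. The myeloid markers Itgam, at 11.09 ± 0.18 and 11.15 ± 0.30, and Mpo, at 11.66 ± 0.30 in Ppara +/+, were far above the negative controls, as the label of a myeloid leukemia implies. The number of arrays limits the precision.

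Across the set, signal was lower in Ppara -/- leukemia for 9 receptors and higher for 1, Lair1. Btla, Klra2 and Siglece passed the test over all genes as lower, none passed as higher, and 7 did not pass (limma, Benjamini-Hochberg adjusted p under 0.05). In that test 0.126% of all genes passed, 0.0664% as lower and 0.0597% as higher, that is 38 genes of which 20 were lower. With cyclic loess normalization 14 genes passed, 64.3% of them lower, against 52.6% of the 38. Over the other fits that called any gene this share went both ways. It ran from 25% of 4 genes with a filter on dim genes to 66.7% of 12 with blocking on replicate number. In 7 of the 10 receptors every Ppara -/- value lay under every Ppara +/+ value, a separation seen in 3.63% of all genes. The same 7 had an unadjusted p under 0.05 as lower, against 2.61% of all genes, and none had one as higher. The median log2 difference was -0.62 over the set and 0.02 over all genes. Because the set was chosen with this contrast known, nothing is read from these counts.

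**Figure D1:**
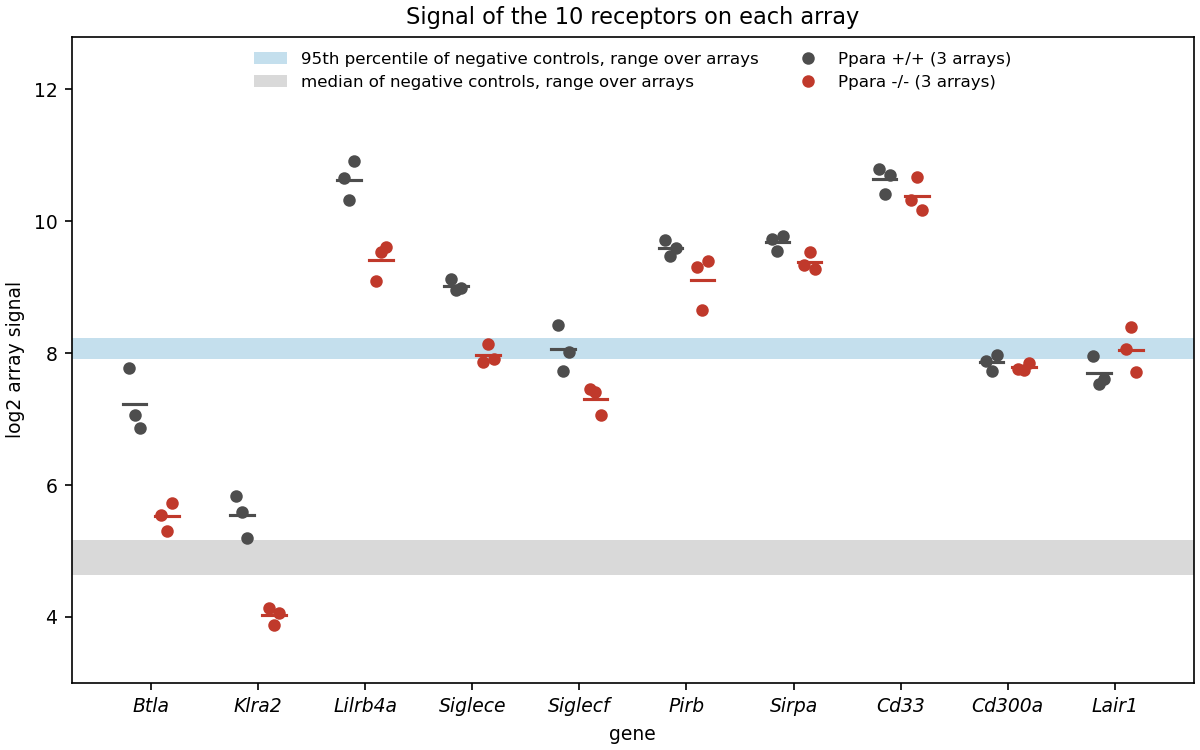
Log2 array signal (vertical axis) of each receptor (horizontal axis) on every array, with Ppara +/+ in grey and Ppara -/- in red. Points are arrays, short lines are means of 3, and the bands give the range of the negative-control 95th percentile and median. Red points lie under all grey points for 7 receptors, from Btla to Sirpa, and the groups overlap for Cd33, Cd300a and Lair1.

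Siglece encodes Siglec-E, the main inhibitory sialic acid receptor of mouse neutrophils, monocytes and macrophages. Its signal was 9.13, 8.96 and 8.99 in Ppara +/+ replicates 1 to 3 and 7.86, 8.14 and 7.91 in Ppara -/- replicates 1 to 3. The groups were tight and lay apart: the Ppara +/+ arrays were all above the negative-control 95th percentile and the Ppara -/- arrays all at or below it. Siglece fell from 9.03 ± 0.09 to 7.97 ± 0.15 (mean ± SD, n = 3), a signal ratio of 2.08 (log2 difference -1.06, SE 0.11; limma adjusted p = 0.0188). The call was lost without Ppara +/+ replicate 3, Ppara -/- replicate 1 or Ppara -/- replicate 3 (limma adjusted p = 0.0942, 0.138 and 0.0681), while the difference stayed between -1.14 and -0.99 in all 16 other fits. A total of 10 of those fits called it, among them a filter on dim genes that Siglece passed only through its 3 Ppara +/+ arrays.

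Btla encodes an inhibitory receptor best known from B and T lymphocytes and also carried by dendritic cells. Its signal was 7.78, 7.06 and 6.87 in Ppara +/+ and 5.55, 5.30 and 5.73 in Ppara -/- replicates 1 to 3. The highest value came from Ppara +/+ replicate 1, the array with the highest negative-control signal, and all 6 values lay under the negative-control 95th percentile and above the negative-control median of their own array. Btla fell from 7.24 ± 0.48 to 5.53 ± 0.22, a signal ratio of 3.27 (n = 3; log2 difference -1.71, SE 0.23; limma adjusted p = 0.0427). Without Ppara +/+ replicate 1 the difference was -1.44 and the call held (limma adjusted p = 0.0225). It was lost when any other array was left out, with limma adjusted p = 0.058 without Ppara +/+ replicate 2, 0.0715 without Ppara +/+ replicate 3, and 0.227, 0.123 and 0.0766 without Ppara -/- replicates 1, 2 and 3. It was also lost with quantile normalization (0.0684), cyclic loess (0.13), arrays centred on their medians (0.273) and the negative-control signal as a covariate (0.102), so that 4 of 15 other fits called it.

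Markers of lymphocytes and dendritic cells, which can carry Btla, had list medians near 0, and their part in the Btla difference was not tested. Of 10 measured B cell genes 3 had a negative difference (median 0.02), of 11 T cell genes also 3 (median 0.05), and of 13 dendritic cell genes 7 (median -0.03), with none past the threshold in limma and 1, 0 and 2 genes at an unadjusted p under 0.05. An unadjusted p that low was seen in 5.78% of all genes. Mean signals of the lists spanned 4.50 to 4.78 in Ppara +/+ and 4.55 to 4.71 in Ppara -/- for B cells, 4.43 to 4.71 and 4.57 to 4.69 for T cells, and 6.01 to 6.23 and 5.83 to 6.11 for dendritic cells. In the dendritic cell list 3 genes were lower without overlap and none higher, separations seen in 3.63% and 5.15% of all genes. They were Ccr9, under the negative-control medians, Cd209a and the transcription factor gene Irf8. Cd209a was at 5.52 ± 0.34 in Ppara +/+ and 4.75 ± 0.15 in Ppara -/-, and Irf8 at 8.88 ± 0.04 and 8.08 ± 0.83 (limma adjusted p = 0.225 and 0.853). Going the other way, with overlapping groups, H2-Ab1 was at 7.31 ± 0.47 and 7.77 ± 0.22 (limma adjusted p = 0.945). These genes were named after their values were seen. With dim genes filtered out only Bst2, Irf8 and Tcf4 of that list were left. Their log2 differences were -0.46, -0.80 and 0.22, so the median of -0.46 is the value of Bst2 alone. The defining markers Ms4a1, at 3.46 ± 0.07 and 3.54 ± 0.09, and Cd3e, at 5.04 ± 0.24 and 5.02 ± 0.14, were at or near negative-control medians in both genotypes. Cd79b, a B cell receptor chain, was at 7.89 ± 0.15 in Ppara +/+ and 7.50 ± 0.18 in Ppara -/- (n = 3; limma adjusted p = 0.615), singled out after its value was seen. It was the 1 gene of the B cell list that was lower without overlap, and none was higher without overlap. All 10 B cell and all 11 T cell genes were under the negative-control 95th percentile on every array, so differences in them were hard to detect.

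Klra2 encodes Ly49B, a member of the Ly49 family that is carried by myeloid cells rather than natural killer cells. Its signal was 5.84, 5.59 and 5.19 in Ppara +/+ and 4.14, 3.88 and 4.06 in Ppara -/- replicates 1 to 3. The Ppara +/+ values lay above the negative-control median of their arrays and the Ppara -/- values all below it, so the Ppara -/- group is not above background and no fold is given. Klra2 signal fell from 5.54 ± 0.33 to 4.03 ± 0.13 (n = 3; limma adjusted p = 0.0201), and the fitted log2 difference of -1.51 (SE 0.17) is one of signals, not a measured change in RNA. The call held without any one of the Ppara +/+ arrays and was lost without Ppara -/- replicate 1, 2 or 3 (limma adjusted p = 0.135, 0.0745 and 0.055). It was also lost with quantile normalization (0.0769), cyclic loess (0.116), centring (0.18) and the negative-control covariate (0.0705), so that 6 of 15 other fits called it. Its relative Klra17 was at 3.31 ± 0.16 in Ppara +/+ and 3.93 ± 0.36 in Ppara -/-, below the negative-control medians (limma adjusted p = 0.497). Of 10 natural killer cell markers 3 had a negative difference (median 0.02, list means 4.37 to 4.57 and 4.59 to 4.68) and 8 stayed under the highest negative-control median. Nkg7, a cytotoxic granule gene of that list, was at 9.09 ± 0.25 and 10.18 ± 0.46 (limma adjusted p = 0.202). Ly49 genes are near-copies of each other, so their probe sets can share signal.

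Lilrb4a encodes gp49B, an inhibitory receptor of monocytes, macrophages and mast cells whose known ligands include fibronectin and, for the human protein, apolipoprotein E. Its signal was 10.66, 10.33 and 10.91 in Ppara +/+ and 9.10, 9.53 and 9.61 in Ppara -/- replicates 1 to 3. All values were above the negative-control 95th percentile and the groups were separated by a gap wider than the spread within either. Means were 10.63 ± 0.29 and 9.41 ± 0.27, a signal ratio of 2.33 (n = 3; log2 difference -1.22, SE 0.18), and the difference did not pass over all genes (limma adjusted p = 0.0689). It did pass without Ppara +/+ replicate 2, at a difference of -1.37 (limma adjusted p = 0.0454), with array weights (0.0114), and with a trended and robust prior (0.0388).

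The next gene to Lilrb4a on chromosome 10 is Lilr4b, which encodes its close relative gp49A, a receptor without the inhibitory motif. Its signal was 9.73, 9.40 and 10.15 in Ppara +/+ and 8.52, 9.11 and 8.99 in Ppara -/- replicates 1 to 3. These values follow the order of the Lilrb4a values within Ppara +/+, and the groups do not overlap. The log2 difference was -0.89 (SE 0.21; limma adjusted p = 0.289). Probe sets of such similar genes can share signal, and how much they share was not tested.

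The region just before the start of the receptor genes is described next. The receptors past the threshold lie on different chromosomes and belong to different families. Any part of the promoter sequence in their differences was not tested. RefSeq promoter sequence of mouse build GRCm38.p6 was read for 8 receptors, all but Lilrb4a and Sirpa, as the 250 bases before the annotated start, 5′ to 3′ on the gene's own strand. Capitals mark GAGGAA or its reverse complement TTCCTC, the core bound by PU.1 and other ETS factors of myeloid cells, and TTGCNNAA or its reverse complement TTNNGCAA, a core bound by C/EBP factors. The 3 receptors past the threshold are printed, with Cd300a as a receptor whose signal was nearly equal in both genotypes.
Siglece, chr7:43660162-43660411, minus strand: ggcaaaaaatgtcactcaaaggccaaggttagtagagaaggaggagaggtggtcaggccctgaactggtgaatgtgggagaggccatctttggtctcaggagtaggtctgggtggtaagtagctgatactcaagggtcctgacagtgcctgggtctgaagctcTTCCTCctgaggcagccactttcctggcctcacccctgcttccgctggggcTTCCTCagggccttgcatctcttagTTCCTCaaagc
Btla, chr16:45224087-45224336, plus strand: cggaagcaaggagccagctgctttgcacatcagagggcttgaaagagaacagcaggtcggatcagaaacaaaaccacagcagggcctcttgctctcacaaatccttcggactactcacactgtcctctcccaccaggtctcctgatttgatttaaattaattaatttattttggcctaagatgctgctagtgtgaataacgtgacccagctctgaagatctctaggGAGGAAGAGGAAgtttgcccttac
Klra2, chr6:131247363-131247612, minus strand: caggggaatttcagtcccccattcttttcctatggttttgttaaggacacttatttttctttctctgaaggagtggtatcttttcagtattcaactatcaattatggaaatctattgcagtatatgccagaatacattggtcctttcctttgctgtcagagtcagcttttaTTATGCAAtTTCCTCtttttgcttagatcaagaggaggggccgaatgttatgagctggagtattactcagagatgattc
Cd300a, chr11:114889791-114890040, plus strand: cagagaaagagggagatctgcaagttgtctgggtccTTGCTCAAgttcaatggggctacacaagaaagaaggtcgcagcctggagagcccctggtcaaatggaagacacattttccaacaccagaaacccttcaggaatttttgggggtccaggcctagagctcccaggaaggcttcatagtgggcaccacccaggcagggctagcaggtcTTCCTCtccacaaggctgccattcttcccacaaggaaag

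GAGGAA was found on either strand in 8 of the 8 receptor promoters and in 23.3% of 32851 mouse promoters of the same length. Siglece held 3 matches, whose first bases lay 87, 36 and 11 bases before the start, all on the reverse strand. Btla held 2 matches side by side, 24 and 18 bases before the start, and Klra2 held 1, at 70 bases, next to a C/EBP core at 79 bases. The match is not limited to receptors that were lower: Cd300a held 1 at 39 bases and Lair1 1 at 26 bases before the start. Its share differed between the other lists, from 70.6% of 17 promoters of neutrophil markers and 58.6% of 29 of activating receptors and adaptors to 15.6% of 32 of sialic acid genes and 9.09% of 11 of dendritic cell markers. The longer form GAGGAAGT was found in the Btla and Pirb promoters and in 2.44% of all promoters. TTGCNNAA was found in those of Cd300a, Klra2 and Lair1 and in 9.56% of all.

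A PPARA response element was also looked for, written as AGGTCA repeated after a spacer of 1 base. It was found in none of the 8 receptor promoters and in 0.0335% of all promoters, and its single repeat AGGTCA in none of the 8 and in 14% of all. TGANTCA (AP-1, 6.75% of all) and CACGTG (E-box, 6.02%) were found in none of the 8, nor was the interferon response motif, GAAA repeated after a spacer of 2 bases (2.98%). All motifs were searched on both strands. GAGGAAGT contains GAGGAA, and the direct repeat contains the single repeat. These are matches of letters in a short window and say nothing of binding.

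The other sialic acid receptors, Siglecf and Cd33, did not pass the test. Siglecf, the receptor of eosinophils and of alveolar macrophages, had signals of 8.43, 7.73 and 8.02 in Ppara +/+ and 7.45, 7.41 and 7.07 in Ppara -/- replicates 1 to 3. The groups did not overlap, but only 1 value was above the negative-control 95th percentile of its array. The log2 difference was -0.75 (SE 0.19; limma adjusted p = 0.312), and -0.57 without Ppara +/+ replicate 1, the array with the highest value. Of 8 measured eosinophil markers 2 had a negative difference (median 0.07), and the list means spanned 4.12 to 4.65 in Ppara +/+ and 4.24 to 4.87 in Ppara -/-. The granule genes went both ways, with overlapping groups: Epx was at 5.21 ± 0.25 and 5.80 ± 0.80, Prg2 at 5.52 ± 0.78 and 5.86 ± 1.28, and Prg3 at 6.33 ± 0.48 and 5.90 ± 0.29. All 8 markers were under the negative-control 95th percentile on every array, and their part in the Siglecf difference was not tested.

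Cd33, which encodes the founding member of this receptor subfamily and in the mouse has a tail unlike that of the human protein, had signals of 10.80, 10.41 and 10.70 in Ppara +/+ and 10.33, 10.67 and 10.17 in Ppara -/-. The groups overlapped, since Ppara -/- replicate 2 was level with the Ppara +/+ arrays. The log2 difference was -0.25 (95% interval -0.61 to 0.11; limma adjusted p = 0.997). Siglece, Siglecf and Cd33 all lie on chromosome 7, yet the interval of Cd33 stops short of the difference of -1.06 measured for Siglece. That contrast between receptors was not tested.

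Pirb, which encodes the paired receptor for MHC class I, had signals of 9.72, 9.47 and 9.60 in Ppara +/+ and 9.30, 8.65 and 9.40 in Ppara -/- replicates 1 to 3. All Ppara -/- values were lower, but replicates 1 and 3 came close to the lowest Ppara +/+ value. The log2 difference was -0.48 (SE 0.19; limma adjusted p = 0.798) and rested largely on Ppara -/- replicate 2, without which it was -0.25. The related gene Lilra6, from the same stretch of chromosome 7, had 9.38, 8.67 and 9.04 in Ppara +/+ and 8.32, 7.62 and 8.42 in Ppara -/- (log2 difference -0.91, SE 0.24; limma adjusted p = 0.378). In both genes Ppara -/- replicate 2 was the lowest array. Their family has near-identical members, so their values are uncertain.

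Sirpa, the CD47 receptor that tells phagocytes not to engulf a cell, had signals of 9.73, 9.55 and 9.78 in Ppara +/+ and 9.34, 9.53 and 9.28 in Ppara -/- replicates 1 to 3. The groups were separated by only the gap between Ppara -/- replicate 2 and Ppara +/+ replicate 2. The log2 difference was -0.30 (SE 0.11; limma adjusted p = 0.765). Cd300a, a receptor for phosphatidylserine and phosphatidylethanolamine, had signals of 7.73 to 7.97 in Ppara +/+ and 7.74 to 7.85 in Ppara -/-, with a 95% interval of -0.32 to 0.16 for the log2 difference. A change of the size seen in Siglece lies outside that interval. All 6 Cd300a values were under the negative-control 95th percentile.

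Lair1, the collagen receptor, was the receptor with a positive difference. Its signal was 7.96, 7.54 and 7.61 in Ppara +/+ and 8.06, 8.39 and 7.71 in Ppara -/- replicates 1 to 3. The groups overlapped, since Ppara -/- replicate 3 was under Ppara +/+ replicate 1. The log2 difference was 0.35 (95% interval -0.07 to 0.77; limma adjusted p = 0.98), it was positive in all 15 other fits that held the gene, and it was 0.18 without Ppara -/- replicate 2. Pirb and Lair1 lie near each other on chromosome 7 and had differences of opposite sign.

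**Figure D2:**
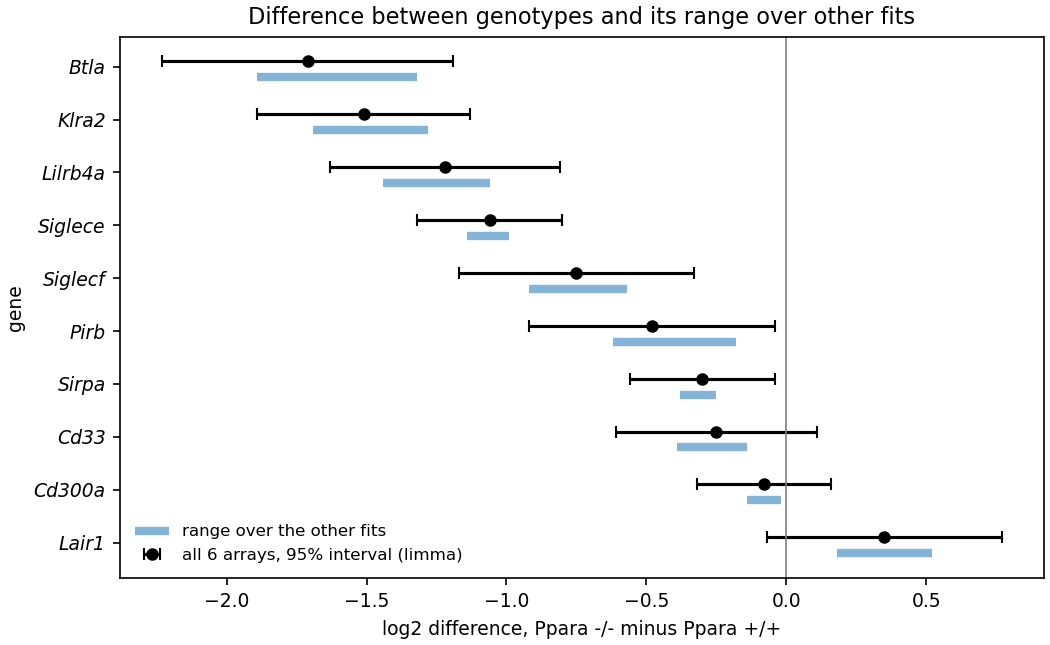
Log2 difference in signal, Ppara -/- minus Ppara +/+ (horizontal axis), for each receptor (vertical axis). Points are the fit to all 6 arrays with 95% intervals from limma, and blue bars span the differences in the other fits, with arrays left out or other processing. No blue bar crosses 0, and the intervals of Cd33, Cd300a and Lair1 do.

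Genes beside the receptors were compared in order to see whether whole stretches of chromosome differed. Up to 3 protein-coding genes on each side of every receptor were taken in RefSeq order, of which 47 were measured. None passed the threshold in limma, and, against 5.78% of all genes, 2 had an unadjusted p under 0.05. Both are receptor genes, Lilr4b (-0.89) and Lilra6 (-0.91), and all other neighbours had log2 differences between -0.46 and 0.28. For Siglece the adjacent genes were Ceacam18 (-0.02) and Ctu1 (-0.08), and for Btla they were Atg3 (-0.13) and Cd200 (0.00). Their differences were within their standard errors of 0.09 to 0.15. Mean signals in Ppara +/+ and Ppara -/- were 8.39 and 8.26 for Atg3 and 6.74 and 6.66 for Ctu1. Ceacam18, at 4.71 and 4.69, lay within the range of the negative-control medians (4.63 to 5.16), and Cd200, at 3.55 and 3.55, under it. Several other neighbours also lay under it. Differences in such dim genes were hard to detect, so they cannot show that a stretch did not differ.

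The genes with the nearest pattern were found by the root mean square distance between log2 signals, each gene centred on its own mean over the 6 arrays. For Siglece, among 2333 genes with a mean above the negative-control 95th percentiles, they were Gapt, an adaptor that binds GRB2, Lilrb4a, and the interferon-induced transmembrane gene Ifitm6, each at a distance of 0.23. For Lilrb4a they were Lilr4b (0.19), the cell cycle inhibitor Cdkn1a (0.21) and Siglece (0.23). Siglece and Lilrb4a were therefore among the nearest of each other. The distance includes the genotype differences on which the receptors were selected, so nothing is read from closeness between receptors of the set. For Btla, among 18012 genes of any level, they were Klra2 (0.19), the Toll-like receptor adaptor Ticam2 (0.22) and Cst7, the cysteine protease inhibitor cystatin F (0.29).

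The genes nearest to Btla are alike by the way they were found, and they were not alike in every array. Cst7 was at 8.62, 7.66 and 7.10 in Ppara +/+ replicates 1 to 3 and at 6.31, 5.64 and 5.78 in Ppara -/-. Ticam2 was at 6.57, 5.85 and 6.22 in Ppara +/+ and at 4.82, 4.49 and 4.81 in Ppara -/-. Ppara +/+ replicate 1 was the highest array for Btla, Klra2, Cst7 and Ticam2, and also for Siglece, while the lowest Ppara +/+ array was replicate 3 for Btla, Klra2 and Cst7 and replicate 2 for Ticam2 and Siglece. In Lilrb4a and Lilr4b, Ppara +/+ replicate 3 was highest. Ppara +/+ replicate 1 also had the highest negative-control signal, and its part in these patterns was not tested for single genes beyond the fits without it. In those fits the difference was -1.44 for Btla and -1.36 for Klra2, and both were called.

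**Figure D3:**
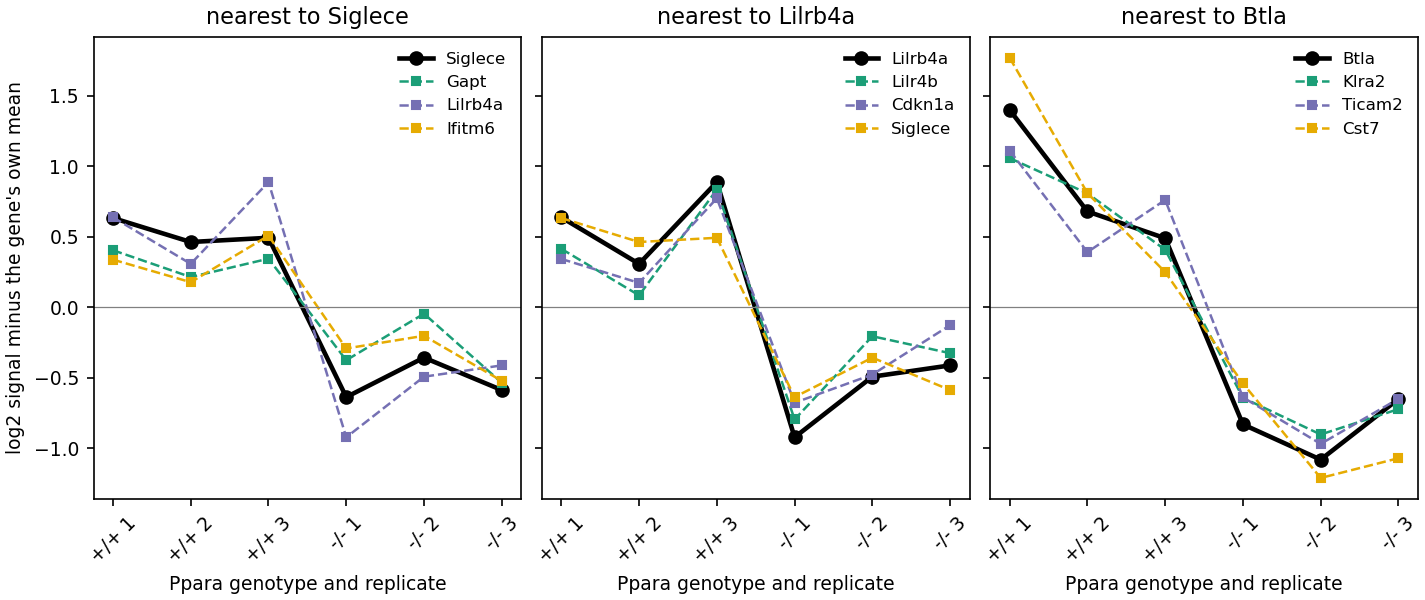
Log2 signal minus the gene's own mean (vertical axis) on each of the 6 arrays (horizontal axis) for Siglece, Lilrb4a and Btla (black) and the 3 genes with the nearest pattern to each (coloured). Siglece and Lilrb4a appear in each other's panel, and Btla and Klra2 both have their highest value on Ppara +/+ replicate 1 and their lowest on Ppara -/- replicate 2.

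Ligands of the receptors went both ways. Of 30 measured ligand genes 16 had a negative and 14 a positive difference (median 0.00). None passed in limma, with 7 at an unadjusted p under 0.05, against 5.78% of all genes. In this list 19 genes were under the negative-control 95th percentile on every array, so differences in them were hard to detect. Fibronectin, encoded by Fn1 and a ligand of gp49B, was at 10.79, 9.43 and 9.40 in Ppara +/+ and 7.89, 6.98 and 8.70 in Ppara -/-. This is a wide gap with a wide spread (log2 difference -2.02, SE 0.47; limma adjusted p = 0.266). The class I heavy chain H2-K1, of the kind PIRB binds, was at 9.49 ± 0.16 in Ppara +/+ and 9.91 ± 0.09 in Ppara -/- (limma adjusted p = 0.414), and Selplg, a heavily sialylated surface mucin, at 10.46 ± 0.11 and 10.06 ± 0.11 (limma adjusted p = 0.433; all n = 3). Of the direct partners, singled out for their role, Tnfrsf14 was at 8.43 ± 0.17 and 8.84 ± 0.11 (limma adjusted p = 0.507) and Cd47 at 11.31 ± 0.24 and 11.29 ± 0.32 (limma adjusted p = 0.997). All 3 Tnfrsf14 values of Ppara -/- were above those of Ppara +/+, and the Cd47 values overlapped.

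Genes that make, transfer or remove sialic acid, the sugar that Siglecs bind, also went both ways, 14 lower and 17 higher in Ppara -/- of 31 measured (median 0.01). None passed in limma, and, against 5.78% of all genes, 2 had an unadjusted p under 0.05. These were St3gal5, the ganglioside GM3 synthase, at 7.96 ± 0.35 in Ppara +/+ and 7.47 ± 0.21 in Ppara -/-, and St8sia4, a polysialyltransferase, at 8.09 ± 0.29 and 7.60 ± 0.33 (limma adjusted p = 0.763 and 0.798, n = 3). St3gal4, which adds the sialic acid of selectin ligands, was at 7.50 ± 0.11 and 7.69 ± 0.17 (limma adjusted p = 0.997). In this list 27 genes were under the negative-control 95th percentile on every array, so differences in them were hard to detect.

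The phosphatases that the tails recruit had close means in both genotypes. Ptpn6 was at 10.38 ± 0.20 in Ppara +/+ and 10.16 ± 0.12 in Ppara -/-, Ptpn11 at 8.00 ± 0.05 and 7.91 ± 0.10, and the inositol phosphatase Inpp5d at 9.33 ± 0.16 and 9.34 ± 0.04 (n = 3; limma adjusted p = 0.997 for each). The list of 26 tail-binding phosphatases, kinases and adaptors had a median of -0.02. None passed the threshold in limma and 5 had an unadjusted p under 0.05, against 5.78% of all genes. The smallest p-values belonged to docking proteins that restrain kinase signalling: Dok2 at 7.07 ± 0.18 and 7.68 ± 0.10, Dok3 at 9.85 ± 0.10 and 10.21 ± 0.07, and Dok1 at 7.11 ± 0.13 and 7.41 ± 0.12. All 3 were higher in every Ppara -/- array than in any Ppara +/+ array, a separation seen in 5.15% of all genes, and none passed (limma adjusted p = 0.19, 0.472 and 0.763).

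Activating counterparts, many of which signal through adaptors with activating tyrosine motifs, went both ways together with these adaptors. Of 23 measured genes 14 had a negative and 9 a positive difference (median -0.03). None passed in limma and 8 had an unadjusted p under 0.05, against 5.78% of all genes. In this list 14 genes were under the negative-control 95th percentile on every array. The adaptor Fcer1g was at 10.93, 10.96 and 10.97 in Ppara +/+ and 10.54, 10.49 and 10.50 in Ppara -/-, a small difference between very tight groups (-0.44, SE 0.09; limma adjusted p = 0.202). The adaptor Hcst had a difference of opposite sign, at 7.19 ± 0.08 and 7.62 ± 0.08 (limma adjusted p = 0.274), and Tyrobp was at 10.98 ± 0.14 and 10.95 ± 0.08 (limma adjusted p = 0.997). The fungal glucan receptor Clec7a was at 9.15 ± 0.37 and 8.07 ± 0.35 (log2 difference -1.08; limma adjusted p = 0.196).

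Inhibitory receptors outside the set went both ways: 27 were measured, 10 of them lower and 17 higher in Ppara -/- (median 0.04). None passed in limma, and 3 had an unadjusted p under 0.05, against 5.78% of all genes. The lowest was Tarm1, a relative of the leukocyte immunoglobulin-like receptors listed here although it pairs with an activating chain, at 7.87, 7.12 and 7.39 in Ppara +/+ and 6.79, 6.19 and 6.40 in Ppara -/- (SE of the log2 difference 0.21; limma adjusted p = 0.213). Havcr2, which encodes TIM-3, was at 3.86 ± 0.29 and 3.52 ± 0.06, below the negative-control medians (limma adjusted p = 0.861). Means were close for myeloid receptors singled out after their values were seen: Clec12a at 10.11 ± 0.39 and 10.25 ± 0.25 and Fcgr2b, the inhibitory Fc receptor, at 8.81 ± 0.21 and 8.80 ± 0.25 (limma adjusted p = 0.997 for both). In this list 20 genes were under the negative-control 95th percentile on every array.

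**Figure D4:**
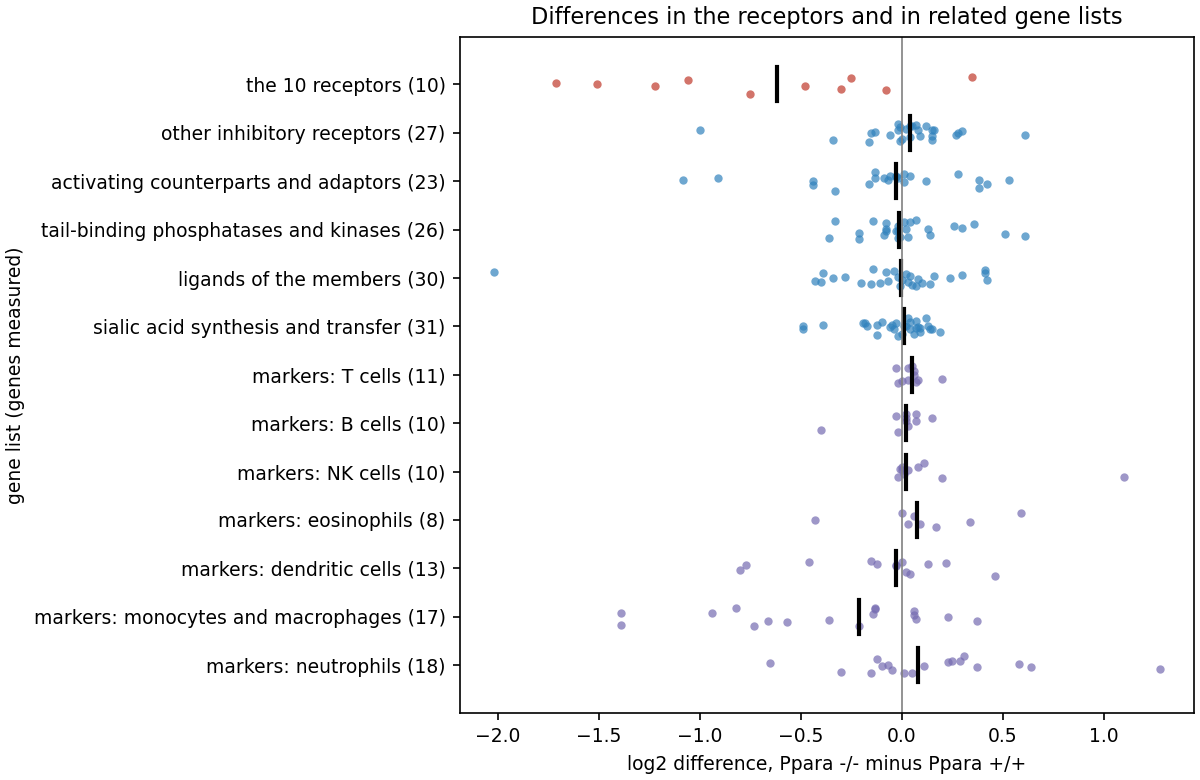
Log2 difference, Ppara -/- minus Ppara +/+ (horizontal axis), for each measured gene (points) of the receptor set (red), of related lists (blue) and of cell type markers (purple), with the median of each list as a black line. The median is -0.62 for the receptors, between -0.03 and 0.04 for the related lists and -0.21 for monocyte and macrophage markers.

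Most monocyte and macrophage markers had lower signal in Ppara -/-. Of 17 measured genes 12 had a negative difference (median -0.21, or -0.35 without Ppara +/+ replicate 1 and Ppara -/- replicate 2). In 9 of them every Ppara -/- value was under every Ppara +/+ value, a separation seen in 3.63% of all genes. Over the fewer genes left with dim genes filtered out the median was -0.66, the value of Adgre1 alone. Adgre1 passed that filter only because of its Ppara +/+ arrays, so that median adds nothing. The list means spanned 7.97 to 8.15 in Ppara +/+ and 7.64 to 7.72 in Ppara -/-. Vcam1 passed as lower (7.32 ± 0.32 to 5.93 ± 0.21, n = 3; limma adjusted p = 0.0364) and the other 16 did not. The Vcam1 call held without Ppara +/+ replicate 2 (limma adjusted p = 0.0454) and was lost without any other array, at 0.0908 and 0.0521 without Ppara +/+ replicates 1 and 3 and at 0.227, 0.0591 and 0.095 without Ppara -/- replicates 1, 2 and 3. Csf1r, the receptor of macrophage colony-stimulating factor, was at 9.28 ± 0.22 and 8.35 ± 0.53, and Adgre1, a macrophage surface receptor, at 8.58 ± 0.27 and 7.92 ± 0.22 (limma adjusted p = 0.361 and 0.312). The monocyte genes Ly6c2, at 13.17 ± 0.15 and 13.04 ± 0.23, and Cd14, at 8.42 ± 0.30 and 8.65 ± 0.26, had close means (limma adjusted p = 0.997 for both). Ccr2 had a higher mean in Ppara -/-, at 6.77 ± 0.31 and 7.13 ± 0.14, and Cx3cr1 a lower one, at 7.52 ± 0.26 and 7.16 ± 0.06 (limma adjusted p = 0.875 and 0.776). Among macrophage genes Cd68 was at 9.70 ± 0.14 and 8.98 ± 0.19 and Mpeg1 at 9.17 ± 0.39 and 8.35 ± 0.04, all above the negative-control 95th percentile of their arrays (limma adjusted p = 0.135 and 0.221). Mrc1, at 3.81 ± 0.09 and 3.88 ± 0.01, and Mertk, at 4.14 ± 0.12 and 4.20 ± 0.13, were under the negative-control medians. These genes were singled out after their values were seen, and the part of this list in the receptor differences was not tested. In sorted bulk cells, fewer cells of a type and less RNA per cell cannot be told apart.

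Neutrophil markers, the other large myeloid list, had a median of 0.08 over 18 genes, 7 negative and 11 positive. None passed the threshold in limma and 5 had an unadjusted p under 0.05, against 5.78% of all genes. Their list means overlapped between the genotypes, at 9.98 to 10.21 in Ppara +/+ and 10.09 to 10.37 in Ppara -/-. Siglece is carried by neutrophils as well as monocytes, and the part of either list in its difference was not tested.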

How the data were processed

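RNA was measured on Affymetrix arrays in 6 samples, grouped by the genotype in their titles. The authors deposited 1 log2 signal for each probe set and array, and per the submitters' processing notes the authors used RMA (background correction, quantile normalization and probe summary) and limma, with no version, role or order. The form of the probe set names differs from the array model that the design text gives, so which model was used is uncertain. Quantile normalization removes a shift shared by most genes.

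Of 72688 rows, 6732 were controls (5222 negative controls), 30604 had 1 gene symbol, 2146 had several and 33206 were unnamed here. A repeated symbol counted once, and older symbols were replaced by matching gene IDs to RefSeq (GRCm38.p6). For each of 30142 genes the probe set with the highest mean signal was kept and tested with limma 3.58.1 in R 4.3.3 (lmFit, eBayes, two-sided, no covariates, Benjamini-Hochberg over all genes, threshold 0.05), after a check on simulated data. No filter was set, since the table has no detection calls. Adjusted p-values come from that fit except where another is stated, and SEs are moderated.

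The receptors, the lists, the motifs and the rules were chosen with earlier results of these data known. Named were all 10 receptors, Ppara, the 3 genes with the smallest p in each related list and the 3 nearest patterns of Siglece, Lilrb4a and Btla, with gene models, microRNA, olfactory and vomeronasal genes left out of the last. Some listed genes have no probe set of their own and were not used here. Python 3.11.15 with pandas 2.3.3 was used for summaries, and matplotlib 3.10.9 for plots. Alternatives were 3 normalizations, another prior, a filter on dim genes, the mean of probe sets, weights per array, blocking on replicate number, the negative-control signal as a covariate, and arrays left out.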

Additional observations from a re-analysis of the deposited data

How the results depend on the processing

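The sign of the log2 difference of each of the 10 receptors was the same in every one of the 16 other fits that held it, and of 155 such values 26 lost the call, 3 gained it and 126 stayed on their side of the threshold. Much of this was fixed in advance. Another prior, the filter, the mean of probe sets (1 per receptor) and the replicate block leave the difference itself unchanged. For the 7 receptors whose groups do not overlap, leaving out arrays cannot change the sign. Leaving out 1 array gave 6 to 38 genes called and 0 to 3 receptors called. With arrays centred on their medians 13 genes and 0 receptors were called (6 at an unadjusted p under 0.05), with quantile normalization 23 genes and 1 receptor, with cyclic loess 14 genes and 1 receptor, and with a filter on dim genes, which left 3989 genes and 5 receptors, 4 genes and 1 receptor. With the negative-control signal as a covariate 1 receptor was called. With quantile normalization, cyclic loess, the filter and the covariate, that 1 receptor was Siglece. Among the fits without 1 array, a single receptor was called without Ppara +/+ replicate 3, Klra2, and without Ppara -/- replicate 2, Siglece. The filter kept genes above the negative-control 95th percentile on at least 3 arrays. Siglece passed it only through its Ppara +/+ arrays, so its call in that fit adds nothing. A trended and robust prior gave 70 genes and array weights 271, each with 4 receptors, Lilrb4a joining the other 3. Without both arrays with the highest negative-control signal limma called 0 genes and 0 receptors (2870 and 6 had an unadjusted p under 0.05), a fit to 4 samples. Replicate numbers were shared between the genotypes, but same-numbered samples did not deviate together (correlations -0.33, -0.47 and 0.11, and 0 of the 6 samples correlated best with its own number). The labels do not say whether they were handled together, and so few samples cannot exclude it. With the number as a replicate block 12 genes and 0 receptors were called (6 receptors at an unadjusted p under 0.05). Apart from the filter and the omitted arrays, the cause of these shifts was not tested. The filter left no gene of the T cell, B cell or eosinophil lists, so it gives no median there. Signal near the negative controls limits Btla and Klra2.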
